A study of Mus musculus with 6 samples.

Results

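The 10 genes described here are products of the Sertoli cell, the somatic nurse cell of the seminiferous tubule, read in libraries made from sorted germ cells. They are Sox9, Wt1, Fshr, Amhr2, Dhh, Inha, Inhbb, Trf, Clu and Ctsl, chosen by symbol from the 53700 genes listed, and all 10 were found. The 6 libraries came from primary spermatocytes of adult C57BL/6 mice aged 8 weeks, sorted from testis suspensions by flow cytometry after Hoechst staining of DNA. In 3 of them the genotype was circSry KO, a knockout of the circular RNA of the sex-determining gene Sry, and in the other 3 it was wild type (WT). The labels give no other allele or agent for either group, and they do not give how the knockout was made, how many animals gave each library or whether replicates came from separate animals. The p-values therefore measure only the spread between these 6 samples. Libraries held 8191397 to 9294723 estimated read counts in circSry KO and 7400360 to 8422943 in WT.

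Sertoli cells hold the germ cells in their folds, feed them, clear their debris and form the barrier behind which meiosis takes place. Their fate is set in the embryo when Sry switches on Sox9. In the adult they answer to follicle-stimulating hormone from the pituitary, return inhibin B to it, send Desert hedgehog to the neighbouring Leydig and peritubular cells, and secrete carrier proteins and proteases into the tubule. Their transcripts are used as markers of Sertoli cells in testis tissue. Several are not restricted to that cell: Clu, Ctsl and Trf are made in many tissues, Amhr2 also in Leydig cells, and Wt1 in kidney podocytes.

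All 10 genes had a higher mean in circSry KO than in WT libraries. Summed over the 10 genes, the level was 255, 398 and 228 CPM (library-size-scaled counts, with TMM factors) in circSry KO replicates 1, 2 and 3, against 106, 107 and 86.3 CPM in WT replicates 1, 2 and 3. The mean sum was 294 ± 91.3 CPM in circSry KO and 99.6 ± 11.6 CPM in WT (SD, n = 3 each), 2.95-fold higher in circSry KO. The groups did not overlap on this scale. Clu weighed most in the sum, with means of 163 CPM in circSry KO and 57.2 CPM in WT. In the deposited TPM the groups overlapped for Clu and Ctsl. There circSry KO replicate 3 had 64.12 TPM of Clu and 18.35 of Ctsl, against 65.29 and 30.31 in WT replicate 2. In libraries of mixed RNA, more Sertoli cells among the sorted cells and more RNA of these genes per cell cannot be told apart.

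No single gene of the 10 passed a Benjamini-Hochberg adjusted p of 0.05 in the quasi-likelihood test of edgeR. Over all genes 0 of 16829 tested passed, which is 0%. Of the 10 genes, 8 had enough counts to be tested (Sox9 and Fshr did not), and all 8 were higher in circSry KO at an unadjusted p under 0.05, a call that 13.6% of all genes tested received. The same 8 had all 3 circSry KO libraries above all 3 WT libraries in CPM, as did 14.1% of all genes tested. Their median log2 fold change was 1.70, against 0.12 over all genes tested. Without TMM factors, 6 of the 8 lay apart and Wt1 and Trf overlapped, against 11.6% of all genes tested lying apart and higher. The filter on low counts keeps a gene that is high in 1 group, so the 8 tested genes do not stand for all 10.

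**Figure D1:**
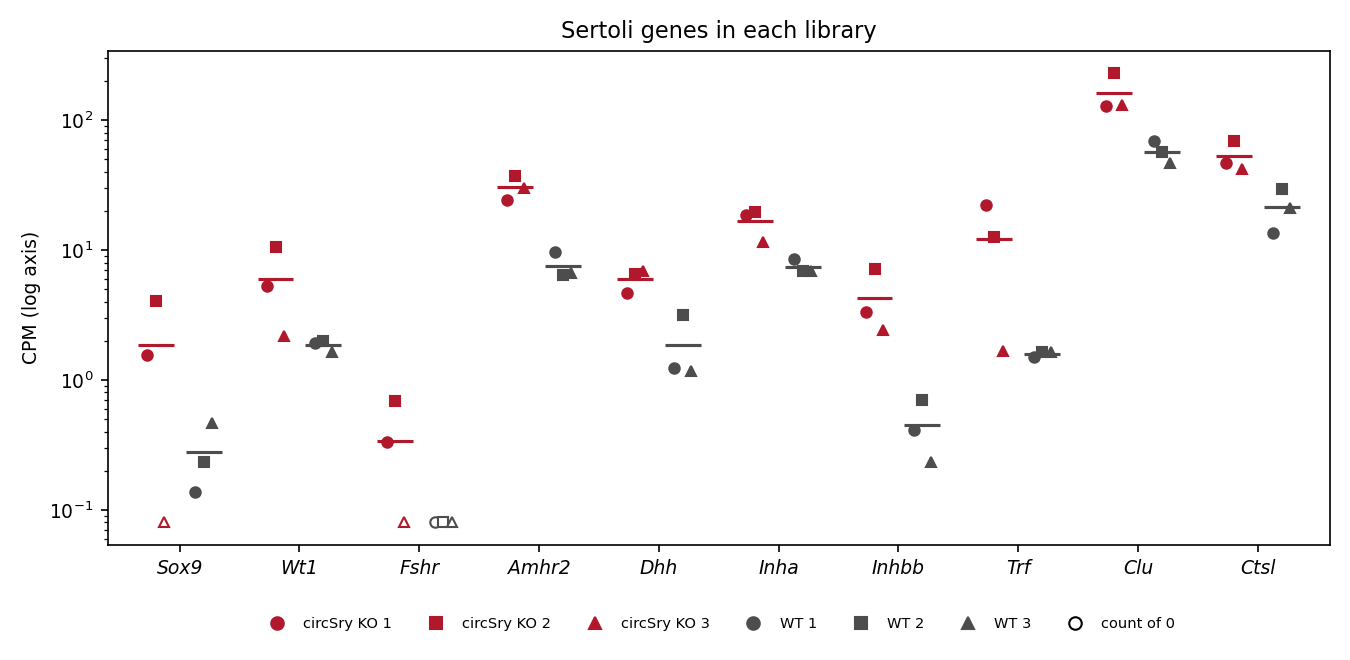
Level of each of the 10 Sertoli genes in CPM (log axis) in the 3 circSry KO libraries (red) and the 3 WT libraries (grey), 1 symbol shape per replicate number, with horizontal lines at group means and open symbols for a count of 0. The circSry KO points lie above the WT points for 8 genes, and for Sox9, Wt1 and Trf the circSry KO replicates spread widely, with replicate 3 lowest.

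The libraries of the circSry KO group were not alike, and replicate 3 stood apart. Across genes its log2 CPM correlated at 0.878 and 0.778 with circSry KO replicates 1 and 2, which correlated with each other at 0.946, and at 0.927 with WT replicate 1. Genes with short transcripts were high in it: relative to the WT mean, the median log2 was 1.21 in the shortest quintile of effective length, against -0.85 in the longest. Smaller trends of the same direction were in circSry KO replicate 1 (0.63 against -0.43) and WT replicate 1 (0.31 against -0.32). Fitted without this library, edgeR called 9 of 9 tested Sertoli genes higher (Sox9 then entered the test), against 18.5% of 17948 genes. Here too the filter keeps a gene that is high in 1 group, so the 9 do not stand for all 10. Sox9 entered through 14 and 35 counts in circSry KO replicates 1 and 2, with 1, 2 and 4 counts in WT. Inhbb had 30 and 62 counts in these 2 libraries, with 3, 6 and 2 in WT. Since the library left out is the one that differed, p-values of that fit are too small. Sry itself had a count of 0 in all 6 libraries, which leaves the genotype unchecked, because counts per gene do not separate a circular RNA from its host gene.

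The nuclear factors of Sertoli identity were low in all libraries. Sox9 encodes the HMG-box factor that carries out the Sertoli decision after Sry, and lies on chromosome 11 from 112782224 to 112787760 (GRCm38, plus strand). It had 14, 35 and 0 counts (1.55, 4.04 and 0 CPM) in circSry KO replicates 1, 2 and 3, against 1, 2 and 4 counts (0.137, 0.233 and 0.466 CPM) in WT replicates 1, 2 and 3. The higher values were those of circSry KO replicates 1 and 2, while replicate 3 had none, so the groups overlapped. Summed over libraries there were 49 counts in circSry KO and 7 in WT, a ratio of 6.35 after division by the group totals. Sox9 was too low for the main test; with no filter on low counts its log2 fold change was 2.59 and did not pass (edgeR adjusted p = 0.17), nor did it in DESeq2 (2.65, adjusted p = 0.193). Without circSry KO replicate 3 it was 3.18 ± 0.70 (SE; edgeR adjusted p = 0.00611).

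Wt1 encodes a zinc-finger factor needed to form the gonad and to keep Sertoli cells in their state (chromosome 2, 105126529 to 105173616, plus strand). It stood at 5.31, 10.6 and 2.17 CPM in circSry KO replicates 1, 2 and 3, against 1.92, 1.98 and 1.63 CPM in the WT libraries. The WT values were nearly alike, and circSry KO replicate 3 lay just above them. Group means were 6.03 ± 4.27 CPM in circSry KO and 1.85 ± 0.188 CPM in WT (SD, n = 3 each). The log2 fold change was 1.70 ± 0.61 (SE) with an edgeR adjusted p of 0.152. It was 1.02 without circSry KO replicate 2 and 2.05 without circSry KO replicate 3 (edgeR adjusted p = 0.0049).

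The receptors set a near-absent gene beside one of the clearest differences. The first, Fshr (chromosome 17, 88984952 to 89200675, minus strand), encodes the receptor for follicle-stimulating hormone, a G-protein-coupled receptor regarded as specific to Sertoli cells in the testis. It had 3, 6 and 0 counts in circSry KO replicates 1, 2 and 3, against 0 counts in each WT library. With the limit set at 3 counts, each of these zeros is compatible with a level of up to 0.356 to 0.405 CPM (counting error only). The 9 counts of the circSry KO group together gave 0.342 CPM, 2.72 times the limit of 0.126 CPM that 3 counts over the whole WT group set. That ratio is not a lower bound. It leaves out the counting error of the 9 counts and the spread between libraries, with 0 counts in circSry KO replicate 3. Fshr was too low for the main test; with no filter it did not pass in edgeR (adjusted p = 0.243), and DESeq2 gave an unadjusted p of 0.149 and no adjusted one.

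The other receptor gene, Amhr2 (chromosome 15, 102445367 to 102454633, plus strand), encodes the type II receptor that binds anti-Müllerian hormone. Its level was 24.4, 37.0 and 29.8 CPM in circSry KO replicates 1, 2 and 3, against 9.62, 6.41 and 6.64 CPM in WT replicates 1, 2 and 3. The lowest circSry KO library was well above the highest WT library, and circSry KO replicate 3 lay between the other 2. Means were 30.4 ± 6.32 CPM in circSry KO and 7.56 ± 1.79 CPM in WT (SD, n = 3 each), and the log2 fold change was 2.01 ± 0.36 (SE; edgeR adjusted p = 0.087). In DESeq2 it was 1.96 and passed (adjusted p = 0.000402). It was 1.97 without circSry KO replicate 3 (edgeR adjusted p = 0.00167), and adjusted p over all alternatives ranged from 0.000402 to 0.418.

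The promoters of the receptor genes and of Inhbb are printed because known control elements can be looked for in them. RefSeq promoters (GRCm38.p6, 250 bases before to 50 after the start RefSeq gives) matched 6 of the 10 genes: Amhr2, Fshr, Dhh, Inha, Inhbb and Ctsl. The windows of Inha (chromosome 1, 75507359 to 75507658) and Ctsl (chromosome 13, 64370471 to 64370770) lie inside the GENCODE bounds of these genes, whose outermost start is farther upstream and was not searched. Each was searched on both strands for 5 motifs: AAGGTCA, bound by the orphan receptor NR5A1; AGATAA, a letter string of GATA-family sites; CACGTG, the E-box; ACAATG, a SOX-family string; and TGACGT, the core of the cAMP response element. Capitals mark the matches in these sequences of Amhr2 at chr15:102445117-102445416 (plus strand), Fshr at chr17:89200626-89200925 (minus strand) and Inhbb at chr1:119422199-119422498 (minus strand).
Amhr2: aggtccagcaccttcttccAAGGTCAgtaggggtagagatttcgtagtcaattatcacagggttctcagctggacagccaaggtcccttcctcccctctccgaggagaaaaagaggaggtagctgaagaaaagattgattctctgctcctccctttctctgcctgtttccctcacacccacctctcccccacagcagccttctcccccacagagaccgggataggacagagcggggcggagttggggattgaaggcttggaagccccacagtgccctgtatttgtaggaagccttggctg
Fshr: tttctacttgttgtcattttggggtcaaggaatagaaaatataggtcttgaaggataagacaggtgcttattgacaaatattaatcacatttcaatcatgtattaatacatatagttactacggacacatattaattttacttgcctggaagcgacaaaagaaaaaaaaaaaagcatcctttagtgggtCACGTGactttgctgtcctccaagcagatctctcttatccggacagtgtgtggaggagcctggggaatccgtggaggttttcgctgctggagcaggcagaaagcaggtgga
Inhbb: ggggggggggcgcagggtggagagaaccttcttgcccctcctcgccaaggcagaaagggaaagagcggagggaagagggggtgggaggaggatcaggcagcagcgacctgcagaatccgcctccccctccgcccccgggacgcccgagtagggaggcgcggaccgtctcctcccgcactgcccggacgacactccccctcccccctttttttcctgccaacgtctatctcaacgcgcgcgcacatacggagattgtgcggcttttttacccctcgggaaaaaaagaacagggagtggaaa
Amhr2 held 1 match to AAGGTCA, which 4.72% of 32851 RefSeq promoters hold. Fshr held 1 CACGTG, which 7.15% hold, as did Ctsl. The promoter of Ctsl also held the SOX letters, found in 12.6% of promoters. No match to AGATAA or TGACGT was in the 6 windows, against 11.2% and 7.51% of all promoters, and Dhh, Inha and Inhbb held none of the 5 motifs. No matches overlapped. These are matches of letters and not measured binding.

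The secreted signals were Dhh, Inha and Inhbb. Desert hedgehog (Dhh, chromosome 15, 98891152 to 98898540, minus strand) is the ligand that Sertoli cells send to Leydig and peritubular cells. It stood at 4.64, 6.58 and 6.89 CPM in circSry KO replicates 1, 2 and 3, against 1.24, 3.15 and 1.17 CPM in WT replicates 1, 2 and 3. The groups did not overlap, and WT replicate 2 came closest to the circSry KO libraries. Which circSry KO library was highest depended on the scale: replicate 3 by a small margin in TMM-scaled CPM, replicate 2 in TPM (1.34, 2.49 and 1.31 in replicates 1, 2 and 3). The log2 fold change was 1.69 ± 0.53 (SE) with an edgeR adjusted p of 0.121. Exons of Dhh share 546 bases with Rhebl1 on the same strand and 1107 bases with the antisense gene Gm49442. The library kit does not mark strand, so reads of these genes can be mixed. Rhebl1 itself had 6.75, 4.73 and 5.10 CPM in the circSry KO libraries against 2.20, 0.816 and 3.38 CPM in the WT libraries, and Gm49442 14.7, 6.92 and 20.7 CPM in circSry KO against 7.83, 3.27 and 5.71 CPM in WT. Their part in the Dhh value was not tested.

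Inha encodes the alpha subunit found in every inhibin (chromosome 1, 75507077 to 75510366, plus strand). It was at 18.7, 19.7 and 11.5 CPM in circSry KO replicates 1, 2 and 3, against 8.52, 6.88 and 6.88 CPM in WT replicates 1, 2 and 3. Its difference was the smallest of the 8 tested genes, 1.16 ± 0.37 (SE) on the log2 scale (edgeR adjusted p = 0.123), with groups that did not overlap and circSry KO replicate 3 nearest to WT.

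Inhbb encodes the beta B subunit, which pairs with the alpha subunit as inhibin B and with itself as activin B (chromosome 1, 119415465 to 119422248, minus strand). It was at 3.32, 7.15 and 2.42 CPM in circSry KO replicates 1, 2 and 3, against 0.412, 0.700 and 0.233 CPM in WT replicates 1, 2 and 3. These values came from 30, 62 and 19 counts in circSry KO and 3, 6 and 2 counts in WT. Every circSry KO library was above every WT library, and the log2 fold change of 3.22 ± 0.67 (SE) was the largest of the 8 tested genes (edgeR adjusted p = 0.0877; DESeq2 3.20, adjusted p = 0.00446). It was 3.45 without circSry KO replicate 3 (edgeR adjusted p = 0.00177).

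Levels of the subunit genes can be compared per transcript length. In the deposited TPM, Inha stood at 17.66, 24.0 and 7.07 in circSry KO replicates 1, 2 and 3 and Inhbb at 0.97, 2.7 and 0.46, so the alpha subunit mRNA was 18.2, 8.89 and 15.4 times the beta B subunit mRNA. In WT replicates 1, 2 and 3, Inha stood at 8.88, 9.26 and 8.55 TPM and Inhbb at 0.13, 0.29 and 0.09 TPM, ratios of 68.3, 31.9 and 95.0. The ratio was lower in each circSry KO library than in each WT library. On the log2 scale it averaged 3.76 ± 0.54 in circSry KO and 5.89 ± 0.81 in WT (SD, n = 3 each), a difference of -2.13, with an exact permutation p of 0.1 (two-sided), the smallest that 3 against 3 libraries allow. The WT ratios rest on 2 to 6 counts of Inhbb.

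The study's title concerns miR-138-5p, a microRNA said there to be bound by circSry. Its mature sequence and the only match to its seed in the 3' UTRs of the 10 genes are shown so that they can be set side by side (capitals: the seed, bases 2 to 8, and its complement).
miR-138-5p: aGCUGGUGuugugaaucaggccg
Inhbb 3' UTR site: caccattccCACCAGCtggccgggc
The microRNA is encoded by Mir138-1 on chromosome 9 and Mir138-2 on chromosome 8 (RefSeq, GRCm38.p6). The site begins at base 332 of the 1857 bases of the Inhbb 3' UTR in GENCODE M21 (GRCm38). Among tested genes with an annotated 3' UTR, 13.8% (1927 of 13916) hold the same 7 letters, and of the 10 Sertoli genes 1 does. The seed match is a description, and binding was not measured.

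The remaining products are a carrier, a chaperone and a protease, of which Clu and Ctsl were the most abundant of the 10 genes. Transferrin (Trf, chromosome 9, 103204001 to 103230444, minus strand) carries iron across the Sertoli barrier to germ cells. It had 22.1, 12.7 and 1.66 CPM in circSry KO replicates 1, 2 and 3, against 1.51, 1.63 and 1.63 CPM in WT replicates 1, 2 and 3. The high values lay in circSry KO replicates 1 and 2 alone, and replicate 3 was at the WT level. The log2 fold change was 2.92 ± 0.82 (SE; edgeR adjusted p = 0.101), and DESeq2 called it (2.86, adjusted p = 0.00783). Leaving out circSry KO replicate 1 gave 2.16, and leaving out circSry KO replicate 3 gave 3.39 ± 0.39 (edgeR adjusted p = 0.000313). In GENCODE M21 2108 exon bases of Trf are shared with the overlapping gene Gm20425 on the same strand.

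Clu encodes clusterin, a secreted chaperone that is among the most abundant Sertoli products (chromosome 14, 65968483 to 65981547, plus strand). It reached 128, 230 and 132 CPM in circSry KO replicates 1, 2 and 3, against 68.6, 56.4 and 46.5 CPM in WT replicates 1, 2 and 3. All circSry KO libraries were higher, replicate 2 most, and replicate 3 lay close to replicate 1. Means were 163 ± 58.0 CPM in circSry KO and 57.2 ± 11.1 CPM in WT (SD, n = 3 each). The difference was 1.51 ± 0.36 on the log2 scale (SE; edgeR adjusted p = 0.0917; DESeq2 1.46, adjusted p = 0.00978).

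Ctsl encodes cathepsin L, a cysteine protease that Sertoli cells secrete (chromosome 13, 64359337 to 64370890, minus strand). It had 46.6, 69.2 and 42.0 CPM in circSry KO replicates 1, 2 and 3, against 13.6, 29.6 and 21.1 CPM in WT replicates 1, 2 and 3. The groups did not overlap and WT replicate 2 came nearest. The log2 fold change was 1.29 ± 0.39 (SE; edgeR adjusted p = 0.117). The antisense gene Gm47123, which shares 1742 exon bases with it, had 0 to 0.383 CPM in circSry KO and 0 to 0.137 CPM in WT, and the pseudogene Gm49230, which shares 395, had none.

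In other fits to all 6 libraries, 4 of the 10 genes passed an adjusted p of 0.05 in DESeq2 (Amhr2, Inhbb, Trf and Clu), where 5.1% of all genes given an adjusted p were called higher. The same 4 passed in edgeR with no filter on low counts, where 1.75% of genes were called higher. The plot of log2 fold changes by gene compares the main fit with 3 other ones.

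**Figure D2:**
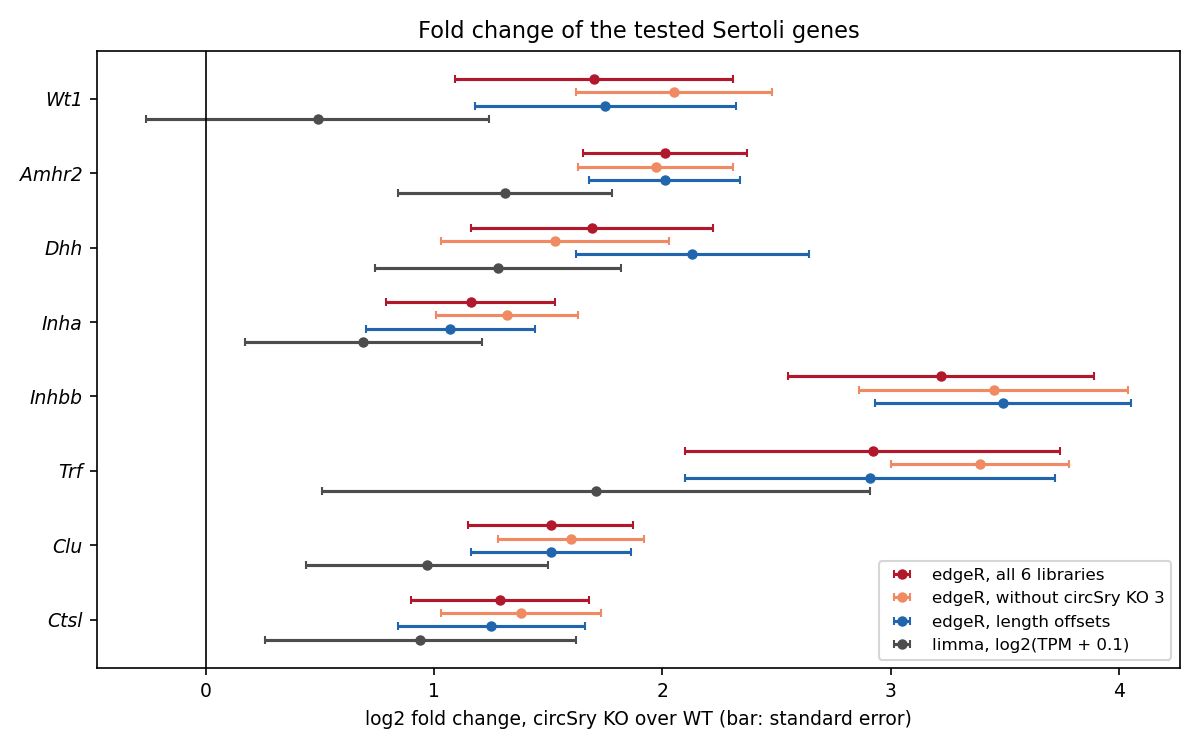
Log2 fold change of circSry KO over WT for the 8 tested Sertoli genes (points, with bars for the standard error). The fits are the main edgeR fit, without circSry KO replicate 3, with offsets for transcript length, and limma on log2(TPM + 0.1). All points shown are above 0, and those on the TPM scale are the lowest of each gene. The TPM bar of Wt1 (0.49 ± 0.75) crosses 0. Inhbb has no TPM value because it was under 1 TPM in 5 libraries.

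On the TPM scale the differences were smaller. TPM divides by transcript length and by the sum over all transcripts in a library, and its use, as log2(TPM + 1), shifted the median over all genes by -0.41 against the CPM scale. The Sertoli genes had log2 differences of circSry KO over WT between 0.44 (Wt1) and 1.52 (Trf), with 7 of them tested. The median over all genes was -0.25. Of the 7 Sertoli genes, 1 (Amhr2, 1.22) had an unadjusted p under 0.05 in limma, against 5.59% of all genes higher at that p, and 0 passed after adjustment. In TPM 3 genes kept every circSry KO library above every WT library (Amhr2, Dhh and Inhbb), as did 5.81% of all genes tested. Levels of different genes can be set beside each other in TPM. By mean the order in circSry KO was Clu, Ctsl, Amhr2, Inha, Trf, Wt1, Dhh, Inhbb, Sox9 and Fshr, and in WT it was Clu, Ctsl, Inha, Amhr2, Wt1, Trf, Dhh, Inhbb, Sox9 and Fshr. Clu had 128 ± 84.6 TPM in circSry KO and 57.4 ± 8.22 TPM in WT, and Ctsl 45.0 ± 33.3 TPM in circSry KO and 21.3 ± 10 TPM in WT (SD, n = 3 each). Clu was above Ctsl in each of the 6 libraries. Amhr2 (21.2 ± 10.2 TPM in circSry KO and 8.18 ± 2.63 TPM in WT) and Inha (16.2 ± 8.55 TPM in circSry KO and 8.90 ± 0.355 TPM in WT) were within their spread of each other in both groups. Trf stood at 16.44, 11.49 and 0.54 TPM in circSry KO replicates 1, 2 and 3, and at 1.24 to 1.71 TPM in WT. At the bottom, Sox9 had 0 to 1.57 TPM in circSry KO and 0.05 to 0.18 TPM in WT, while Fshr had 0 to 0.49 TPM in circSry KO and was listed at 0 in WT.

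**Figure D3:**
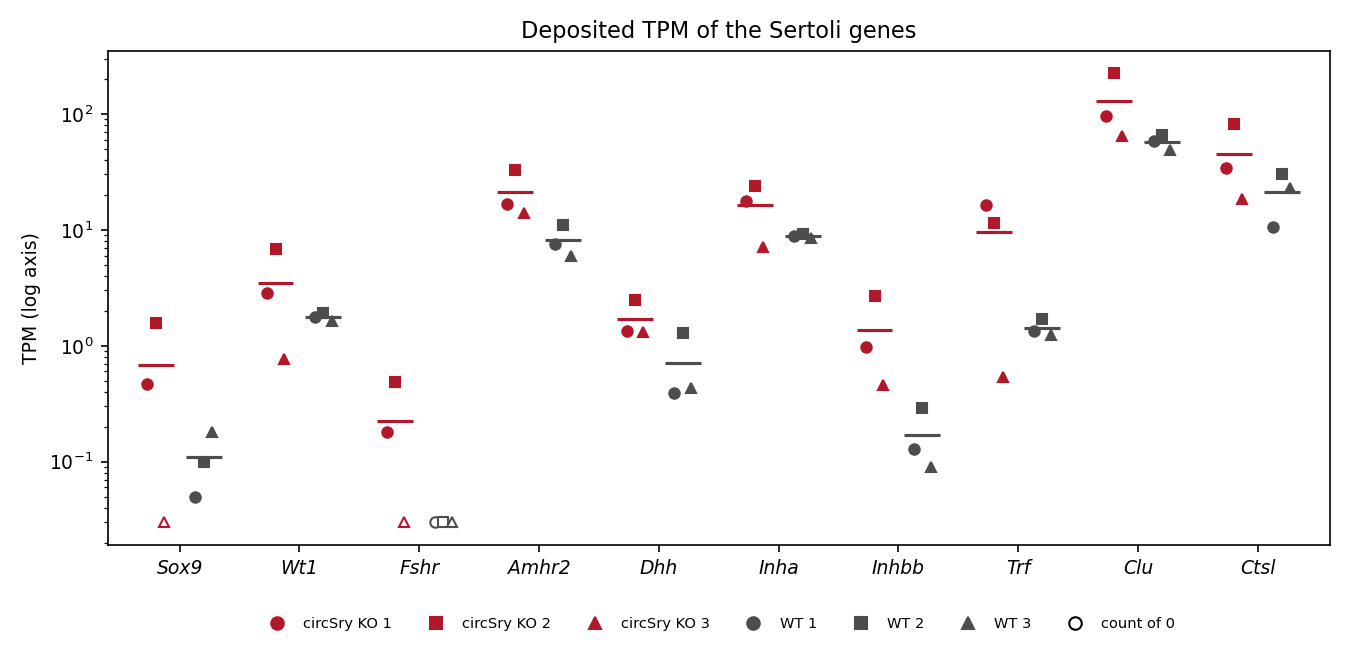
Deposited TPM of the 10 Sertoli genes (log axis) in the 3 circSry KO libraries (red) and the 3 WT libraries (grey), with horizontal lines at group means and open symbols for genes listed at 0. The circSry KO replicate 3 points (red triangles) lie below the WT points for Sox9 (listed at 0), Wt1, Inha and Trf, and Clu is highest in both groups.

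Within the circSry KO group the genes did not move as 1 block. Relative to the WT mean, the median of the 8 tested genes was a log2 of 1.38, 2.15 and 1.12 in circSry KO replicates 1, 2 and 3. In replicate 2 the highest were Inhbb (3.48), Trf (2.82), Wt1 (2.38) and Amhr2 (2.28), and in replicate 1 Trf (3.61) and Inhbb (2.43). In replicate 3, Inhbb (2.01), Amhr2 (1.97) and Dhh (1.90) were high, while Wt1 (0.21) and Trf (0.05) were at the WT level, and Sox9 and Fshr had no count. The effective lengths of Inhbb, Dhh and Sox9 were 4021, 4005 and 3925 bases, in the longest quintile, and those of Amhr2, Trf, Clu and Wt1 1538 to 2058 bases, in the middle one; Fshr had no value. With offsets that removed each library's trend on length, the log2 fold changes were 1.75 for Wt1, 2.01 for Amhr2, 2.13 for Dhh, 1.07 for Inha, 3.49 for Inhbb, 2.91 for Trf, 1.51 for Clu and 1.25 for Ctsl.

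Of 30 other genes used as Sertoli markers, 19 were tested, and 9 were higher and 1 lower at an unadjusted p under 0.05 (13.6% of all genes were higher and 9.84% lower at that p). None of the 19 passed after adjustment in edgeR, and DESeq2 called 8 higher of the 25 it gave an adjusted p, against 5.1% of all genes. Their median log2 fold change was 1.20, against 0.12 over all genes. The 9 were Gata1, Cst9, Cst12, Cldn11, Aard, Defb36, Tsx, Drd4 and Lgals1, listed after their values were seen. Because the filter on low counts keeps a gene that is high in 1 group, the 19 do not stand for all 30. Gata1, with 3, 2 and 4 counts in WT, was kept through its 11, 13 and 21 counts in circSry KO. By smallest p the first were Cst12, Cst9 and Defb36: the beta-defensin gene Defb36 had 3.76, 6.00 and 9.95 CPM in circSry KO replicates 1, 2 and 3, against 0.687, 0.583 and 0.117 CPM in WT replicates 1, 2 and 3, a log2 fold change of 3.80 ± 0.70 (SE; edgeR adjusted p = 0.087). The cystatin gene Cst12 had 9.62, 13.6 and 16.8 CPM in circSry KO against 0.825, 0.583 and 0.699 CPM in WT, and Cst9 10.3, 22.5 and 22.8 CPM in circSry KO against 1.37, 0.700 and 0.466 CPM in WT. In CPM circSry KO replicate 3 was the highest library for these 3 genes. Their transcripts are short (effective lengths of 315 bases for Cst12, 457 for Cst9 and 237 for Defb36), and in TPM replicate 2 was the highest, at 64.36, 73.96 and 37.43 against 41.01, 38.39 and 32.24 in replicate 3. With offsets for transcript length the log2 fold changes were 3.39 for Cst12, 3.81 for Cst9 and 2.83 for Defb36.

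The 2 with the highest mean CPM of the 30 had negative fold changes. Tjp1, which encodes a scaffold of tight junctions, had 67.8 ± 51.1 CPM in circSry KO and 88.2 ± 33.7 CPM in WT, and Ptgds, a prostaglandin synthase gene, had 31.7 ± 18.7 CPM in circSry KO and 66.3 ± 16.7 CPM in WT (SD, n = 3 each), with log2 fold changes of -0.38 ± 0.55 and -1.06 ± 0.45 (SE; edgeR adjusted p of 0.708 and 0.203). Ptgds is the 1 gene lower at an unadjusted p under 0.05. Its transcript is also short (effective length 544 bases), and with offsets for length its log2 fold change was -1.82 ± 0.33 (SE, edgeR adjusted p = 0.142). In TPM it had 47.62, 57.27 and 83.99 in circSry KO replicates 1, 2 and 3. In WT replicates 1, 2 and 3 it had 188.92, 188.48 and 138.93 TPM, so the groups lay apart in TPM, while they overlapped in CPM. Per length, Lgals1, a galectin gene, was also among the most abundant, at 93.0 ± 17.3 TPM in circSry KO and 46.3 ± 9.70 TPM in WT (SD, n = 3 each), with a log2 fold change of 1.56 in CPM (edgeR adjusted p = 0.114). Its transcript is short too (effective length 443 bases), and with offsets for length the log2 fold change was 0.73 ± 0.28 (SE, edgeR adjusted p = 0.199). Amh, the hormone gene that Sertoli cells shut down at puberty, was too low to be tested, at 0.664, 1.04 and 2.42 CPM in circSry KO replicates 1, 2 and 3, against 1.10, 1.17 and 1.17 CPM in WT replicates 1, 2 and 3. The groups overlapped. Without circSry KO replicate 3, 13 of 20 tested were called higher and 1 lower in edgeR, against 18.5% and 16.2% of all genes.

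**Figure D4:**
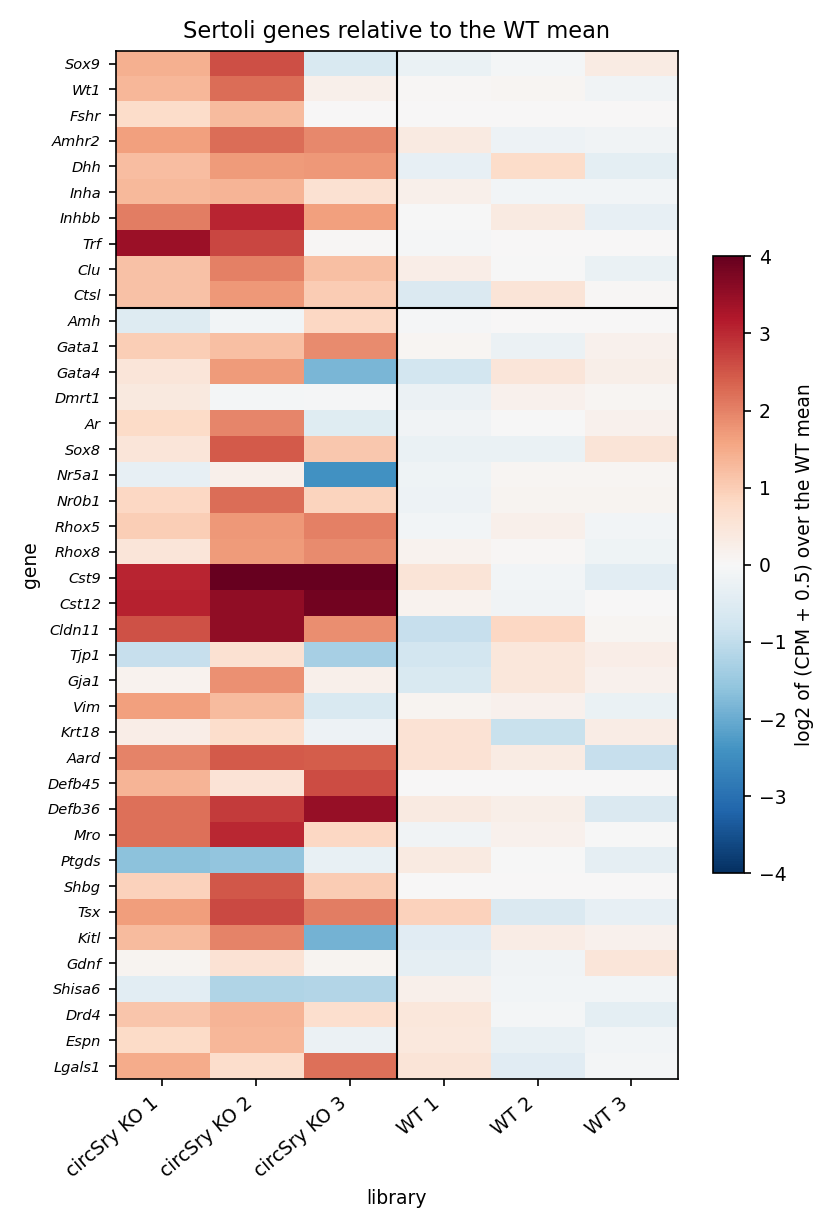
Heat map of log2(CPM + 0.5) relative to the WT mean (colour scale from -4 to 4) for the 10 Sertoli genes above the line and 30 other Sertoli genes below it, with the 3 circSry KO libraries left of the 3 WT libraries. Cst9, Cst12 and Defb36 are high in all 3 circSry KO libraries, whereas Wt1 and Trf in circSry KO replicate 3 have the colour of WT.

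Genes that receive or relay these signals were counted in the same way. In the inhibin, activin and anti-Müllerian hormone pathway, 13 of 16 genes were tested, with 0 higher and 2 lower at an unadjusted p under 0.05, where 13.6% of all genes were higher and 9.84% lower. The median log2 fold change was -0.31, but 0.06 with offsets for length and 0.15 without circSry KO replicate 3, where 3 genes were called higher and 3 lower (18.5% and 16.2% of all genes). Acvr1b, an activin type I receptor, had 9.40, 10.6 and 18.2 CPM in circSry KO replicates 1, 2 and 3, against 30.2, 65.9 and 54.0 CPM in WT replicates 1, 2 and 3. No circSry KO library reached the lowest WT library, and the log2 fold change was -1.97 ± 0.43 (SE; edgeR adjusted p = 0.0877). Smad2, which relays the activin signal, had -0.88 ± 0.33 (SE; edgeR adjusted p = 0.161), and Bmpr1a, a type I receptor for anti-Müllerian hormone, -0.89 ± 0.41 (edgeR adjusted p = 0.238). The most abundant, Smad5 and Smad1, had -0.59 ± 0.45 and -0.31 ± 0.38 (SE), and Smad5 had 0.10 with offsets for length.

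In the hedgehog pathway 8 of 10 genes were tested (median 0.22). Of these, 0 were past an unadjusted p of 0.05, where 13.6% of all genes were higher and 9.84% lower. With offsets for length 2 were higher at that p, Ptch1 and Gli1, as were 2147 of all 16829 genes. Without circSry KO replicate 3 edgeR called 3 of 9 higher and 0 lower (median 0.70), against 18.5% and 16.2% of all genes. Ptch1, the hedgehog receptor and itself a target gene, had 8.85, 21.9 and 0.383 CPM in circSry KO replicates 1, 2 and 3, against 0.962, 3.73 and 1.52 CPM in WT replicates 1, 2 and 3. It was high in circSry KO replicates 1 and 2 and lowest of all in replicate 3. Gli1, a transcription factor of the pathway and another target, shared that order, with 2.43, 7.73 and 0.255 CPM in circSry KO against 0.687, 1.17 and 0.932 CPM in WT. Their log2 fold changes were 2.31 ± 1.09 and 1.88 ± 0.96 (SE; edgeR adjusted p of 0.241 and 0.272), and without circSry KO replicate 3 they were 2.82 and 2.37 (edgeR adjusted p of 0.0031 and 0.00881). In CPM Dhh, their ligand, was above every WT library in circSry KO replicate 3, where both were below every WT library. The more abundant Sufu, an inhibitor of the pathway, had 0.49 ± 0.35 (SE; edgeR adjusted p = 0.433).

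Of the genes of iron uptake and storage, 5 of 6 were tested. At an unadjusted p under 0.05, 13.6% of all genes were higher and 9.84% lower. Among the 5, only the ferritin light chain Ftl1 was higher at that p (log2 fold change 0.97 ± 0.37, edgeR adjusted p = 0.171). With offsets for length it was 0.49 and on log2(TPM + 1) it was 0.57, and neither had an unadjusted p under 0.05 (edgeR adjusted p = 0.439 with offsets). The transferrin receptor gene Tfrc had 19.9 ± 3.72 CPM in circSry KO and 32.3 ± 8.91 CPM in WT (SD, n = 3 each). Its difference on the log2 scale was -0.70 ± 0.35 (SE; edgeR adjusted p = 0.256), and that of Fth1, the ferritin heavy chain, 0.51 ± 0.46. Among 4 tested genes of the pathway below the FSH receptor, Creb1, Gnas, Prkar1a and Prkaca had log2 fold changes from -0.54 ± 0.30 to 0.30 ± 0.45 (SE), with 0 past an unadjusted p of 0.05. Of 6 tested genes for clusterin receptors, lysosomal proteases and a cystatin (Cst3), 0 were past that p. Ctsb had 0.75 ± 0.47, Lrp2 0.71 ± 0.53, Cst3 0.62 ± 0.39 and Ctsd 0.09 ± 0.38 (SE).

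Markers of other cells of the testis moved with the same libraries. The summed level of 11 macrophage and leukocyte markers was 485, 276 and 51.9 CPM in circSry KO replicates 1, 2 and 3, against 46.0, 37.1 and 29.7 CPM in WT replicates 1, 2 and 3, and that of 10 peritubular, stromal and endothelial markers 582, 675 and 40.6 CPM in circSry KO, against 106, 170 and 125 CPM in WT. Both were high in circSry KO replicates 1 and 2, the libraries in which Trf, Wt1 and Sox9 were high. In circSry KO replicate 3 the stromal sum was below and the macrophage sum above every WT library; there Amhr2, Inhbb, Dhh, Clu, Inha and Ctsl were above every WT library in CPM, and Amhr2, Inhbb and Dhh in TPM. The most abundant macrophage marker by mean was Cd74, at 167, 97.0 and 3.19 CPM in circSry KO against 6.60, 5.83 and 3.85 CPM in WT. The most abundant stromal marker was Dcn, at 242, 255 and 13.6 CPM in circSry KO against 18.4, 34.1 and 26.9 CPM in WT. Leydig markers went the other way, at 281, 248 and 589 CPM in circSry KO replicates 1, 2 and 3, against 858, 645 and 587 CPM in WT (9 genes, led by Insl3). At an unadjusted p under 0.05 in edgeR, 8 of 9 tested macrophage markers and 3 of 10 stromal markers were higher in circSry KO, against 13.6% of all genes, and 7 of 9 Leydig markers were lower, against 9.84%.

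Germ cell markers also differed. The sum of 10 spermatid markers, led by Tnp2, was 12621, 8587 and 5643 CPM in circSry KO replicates 1, 2 and 3. It was 2580, 1541 and 1640 CPM in WT replicates 1, 2 and 3, without overlap. In edgeR 10 of 10 were higher in circSry KO at an unadjusted p under 0.05, against 13.6% of all genes. Markers of the labelled cell type, 10 genes of primary spermatocytes, were detected in all libraries and summed to 4697, 3302 and 9229 CPM in circSry KO and to 6784, 5884 and 6121 CPM in WT. Most of that sum was Ldhc, at 3978, 2757 and 6975 CPM in circSry KO and 4377, 2809 and 3602 CPM in WT. Piwil1, the next in WT, had 55.5, 74.6 and 832 CPM in circSry KO and 1027, 1437 and 1142 CPM in WT. At that p 3 of the 10 were lower and none higher in edgeR, against 9.84% and 13.6% of all genes. Without circSry KO replicate 3 edgeR called 8 lower, against 16.2% of all genes. The 8 spermatogonial markers, led by Dmrtb1, summed to 763 to 1095 CPM in circSry KO and 774 to 1358 CPM in WT. Among the marker lists of other cell types, 1 macrophage marker in circSry KO replicate 3 was at 0. In the Sertoli list, 2 genes were at 0 in circSry KO replicate 3 (Sox9 and Fshr) and 1 in each WT library (Fshr). The part of other cells in the Sertoli values was not tested.

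**Figure D5:**
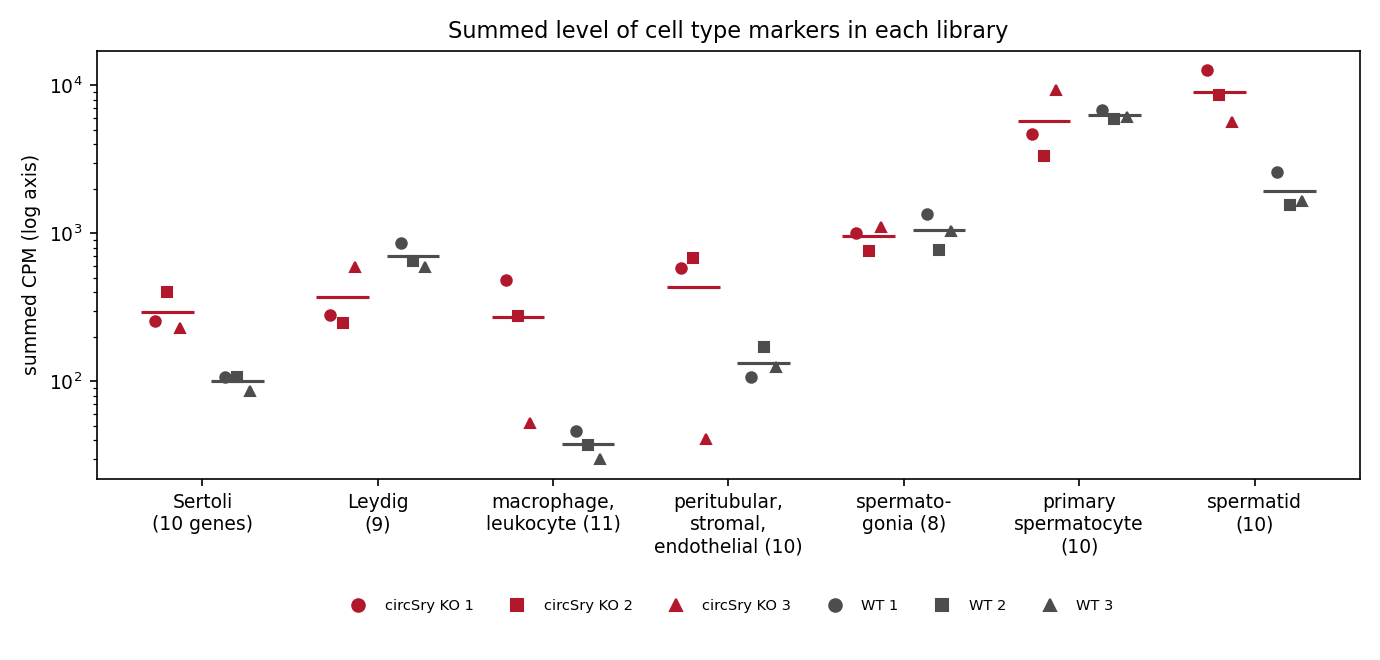
Summed CPM (log axis) of marker lists for the Sertoli cell and 6 other cell types in the 3 circSry KO libraries (red) and the 3 WT libraries (grey), with horizontal lines at group means. Sertoli, spermatid and macrophage sums lie apart between groups. Macrophage and stromal sums are highest in circSry KO replicates 1 and 2. In replicate 3 the macrophage sum, most of it Csf1r, is just above the WT libraries and the stromal sum is below them.

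The genes most like the mean profile of the 8 tested Sertoli genes over the 6 libraries were Gprc5b, Septin9, Gm30228, Timp2 and Snn, among 12243 other tested genes with a mean of at least 5 CPM. Likeness is the root mean square distance between centred log2 CPM profiles, which was 0.094 for Gprc5b, 0.141 for Septin9, 0.176 for Gm30228, 0.206 for Timp2 and 0.217 for Snn. The Sertoli genes themselves lay 0.276 (Clu) to 0.881 (Trf) from their own mean. Gprc5b, an orphan G-protein-coupled receptor gene, had 23.0 ± 9.59 CPM in circSry KO and 6.46 ± 0.849 CPM in WT, and Timp2, an inhibitor of metalloproteases, had 87.3 ± 38.4 CPM in circSry KO and 32.0 ± 2.60 CPM in WT (SD, n = 3 each). These points share libraries and depth, and the likeness is a description.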

How the data were processed

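Per the labels' protocols, RNA of Hoechst-sorted primary spermatocytes was extracted with Trizol; the Illumina TruSeq RNA kit used for libraries does not mark strand. For each gene and library the authors deposited an estimated count, a TPM and an FPKM value. Per the submitters' processing notes the tools were RSEM 1.3.2, STAR 2.7.0f and edgeR 3.28.1, and builds mm9 and GRCm39 are listed without a stated role. For the annotation that was counted, the sources used here give no release. Positions, exon overlaps and 3' UTRs come from GENCODE M21 on GRCm38, which may not be the build used for counting.

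The authors' estimated counts were rounded to whole numbers and tested in R 4.3.3 with the quasi-likelihood F test of edgeR 4.0.16 (genotype as the only term, TMM, filterByExpr, Benjamini-Hochberg over 16829 genes, threshold 0.05). An SE was taken as the absolute log2 fold change divided by the square root of the F statistic. CPM are TMM-scaled. The deposited TPM served as an alternative scale, and FPKM with the counts gave effective lengths. Depth was 7400360 to 9294723 counts per library, so that 3 counts equal 0.323 to 0.405 CPM; such limits cover counting error only. The steps were tested on simulated counts.

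The genes, gene lists and tests were chosen with earlier results of these data known. Named genes were all 10 Sertoli genes, the 3 smallest p and 2 highest means of each further list, the highest marker of each cell type and the 5 genes nearest in profile. A gene named by this rule is not reported here. The 18 alternatives used no filter, 1 CPM in 3 libraries, upper-quartile or RLE factors, DESeq2 1.42.0, limma-voom (limma 3.58.1), each library left out, a replicate block, robust dispersions, 3 log2 TPM fits (pseudocount 1 or 0.1, genes at 1 TPM in 3 libraries or no filter) and offsets for the lowess trend (span 0.3) on effective length.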

Additional observations from a re-analysis of the deposited data

How the results depend on the processing

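All 142 alternative values of the 8 tested Sertoli genes kept a positive log2 fold change (0.44 to 3.67), and 16 passed an adjusted p of 0.05, against 0 of 8 in the edgeR fit to all libraries. With no filter, 4 Sertoli and 9 other Sertoli genes passed (Amhr2 1.96, Clu 1.46, Inhbb 3.16 and Trf 2.85); in DESeq2 4 and 8 passed (Amhr2 1.96, Clu 1.46, Inhbb 3.20 and Trf 2.86). Higher at an unadjusted p under 0.05 were 1 Sertoli gene on log2(TPM + 1), 1 on log2(TPM + 0.1) and 2 on log2(TPM + 1) with no filter, against 8; in limma-voom they were 6, without Wt1 and Trf. Other Sertoli genes past an adjusted p numbered 1 on log2(TPM + 1) and 2 on log2(TPM + 0.1). The cause was not tested.

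Leaving out 1 library at a time gave 0 to 9 Sertoli genes and 0 to 14 other Sertoli genes past an adjusted p of 0.05, the highest counts without circSry KO replicate 3, and 5 to 9 Sertoli genes higher at an unadjusted p under 0.05, the lowest without WT replicate 3. Log2 fold changes ranged over left-out libraries from 1.84 to 2.23 for Amhr2, 1.18 to 1.67 for Clu, 1.02 to 2.05 for Wt1, 1.43 to 2.31 for Dhh, 1.02 to 1.32 for Inha, 2.64 to 3.67 for Inhbb, 2.16 to 3.39 for Trf and 1.04 to 1.59 for Ctsl. All 8 passed an adjusted p without circSry KO replicate 3 (Amhr2 1.97, Clu 1.60, Wt1 2.05, Dhh 1.53, Inha 1.32, Inhbb 3.45, Trf 3.39 and Ctsl 1.38), where the fitted coefficient of variation between replicates was 0.289 against 0.453 with it.

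The labels do not say whether replicate numbers pair the libraries. Deviations of same-numbered libraries from their group means correlated at 0.04, 0.33 and -0.27, and those of other pairs at -0.47 to 0.35. With 3 libraries per group these values cannot decide whether the libraries were paired. With the replicate block 0 Sertoli genes passed, 8 were higher at an unadjusted p under 0.05, and log2 fold changes ran from 1.13 (Inha) to 3.20 (Inhbb). Against the main scale, the median of all genes moved by -0.41, -0.49 and -0.39 on the TPM scales, -0.14 in limma-voom, -0.12 with the block and -0.16 without circSry KO replicate 3, and by less than 0.1 otherwise. Depth limits Sox9 and Fshr, whose WT counts of 0 to 4 per library do not fix a fold change.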
